A study of Zea mays with 12 samples.

Results

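The 8 genes described here have descriptions that name an auxin response gene or, for *ABCB19*, an ABC transporter of the B family without naming auxin. They were found by their gene identifiers among 720 genes, which are the part of the expression table analysed here. The rest of the table was not analysed here, so the 8 are not all the auxin genes of the maize kernel. They are 1 Aux/IAA gene (*IAA29*, *Zm00001d000288*), 3 auxin response factor genes (*ARF16*, *Zm00001d000358*; *ARF3*, *Zm00001d001879*; *ARF4*, *Zm00001d001945*), 3 SAUR-like genes (*Zm00001d001961*, *Zm00001d001963* and *Zm00001d001964*) and *ABCB19* (*Zm00001d002119*), an ABC transporter of the B family. RNA was sequenced from whole kernels of the WT and of the small-kernel mutant *smk7a*, at 12 and at 20 days after pollination (DAP), with 3 biological replicates in each of the 4 groups and thus 12 samples. The mutant is recessive, comes from an EMS-mutagenized library in the B73 background and was propagated through heterozygous plants. Kernels of both kinds came from shared segregating ears and were told apart by phenotype, and the sources used here do not say how many of the WT kernels carried the mutant allele. The 8 genes were chosen by gene identifier at a time when their FPKM in these 12 samples were known. The rule states no cutoff, and the list holds every gene among the 720 that is described as a member of these families. All levels and fold changes below, with their p-values over all genes tested, therefore describe these samples and are no independent support for a role of the pathway.

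Auxin (indole-3-acetic acid, IAA) acts by removing repressors. At low auxin the Aux/IAA proteins bind the auxin response factors (ARFs), which sit on the promoters of auxin-responsive genes, and hold them inactive. Auxin joins the Aux/IAA proteins to F-box receptors, so that they are degraded and the ARFs are released. The SAUR genes (small auxin up RNA) are among the fastest targets, and in *Arabidopsis* several SAUR proteins promote cell expansion. *ABCB19* of *Arabidopsis* is a plasma membrane protein that exports auxin from the cell and works in long-distance auxin transport. In the maize kernel auxin is made mainly in the endosperm and is needed there for normal cell number and grain filling. The names used here are those of the deposited descriptions. The synonyms deposited beside them give other numbers (*IAA20* for *IAA29*, *ARF18* for *ARF16*, *ARF12* for *ARF3*, *ARF11* for *ARF4*), so the number in a name was not used to assign a role to a single gene. The term auxin-activated signaling pathway is annotated to 7 of the 8 genes and to 12 genes of the table. Plant hormone signal transduction is annotated to 4 of the 8, namely *ARF4* and the 3 SAUR-like genes.

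The expression level is given as FPKM (a count of sequenced fragments divided by transcript length and by the depth of the library), which corrects for transcript length, so that levels can be compared between genes. Groups were compared with limma on log2(FPKM + 0.1) over all genes that exceeded 1 FPKM in 3 or more of the samples compared. A gene was called where the fold change was above 2 and the adjusted p-value under 0.05. Fold changes on this scale understate the change of weakly expressed genes. Of the 8 genes, 6 were tested in at least 1 comparison, and *ARF4* and *Zm00001d001963* in none. Most genes of the table were shifted together. Between *smk7a* and WT, the median over tested genes of the log2 fold change stood at 0.48 (12 DAP) and 0.53 (20 DAP), and that from 12 to 20 DAP was -0.55 in the WT and -0.44 in *smk7a*. A fold change relative to the median is the log2 fold change minus this value. In *smk7a* against WT, 81.9% of the called genes at 12 DAP and 90.6% at 20 DAP were higher, and median of ratios scaling moved these shares to 48.3% and 46.4%. Between the stages 11.5% of the called genes were higher in the WT and 15.7% in *smk7a*, and 53.1% and 41.9% after this scaling. The 3 genes of the table described as endosperm genes (*BETL4*, endosperm specific protein1 and dull endosperm1) summed to 519 to 548 FPKM in the WT and 195 to 259 FPKM in *smk7a* at 12 DAP, and to 282 to 331 and 183 to 322 FPKM at 20 DAP. Of 9 genes whose descriptions hold the word embryo or embryogenesis, 8 were at 0 FPKM in all samples. They were found by word only, embryo sac3 among them, and are no measure of the embryo. The gene of the 9 that was above 0, a late embryogenesis abundant gene, was at 12.4 to 19.9 FPKM in the WT and 28.0 to 36.2 FPKM in *smk7a* at 12 DAP. At 20 DAP it was at 10.03 to 12.7 and 11.2 to 15.4 FPKM. No gene of the table has a description that names a pericarp, seed coat, aleurone or pollen gene. In whole kernels fewer cells of a type and less RNA per cell cannot be told apart.

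**Figure D1:**
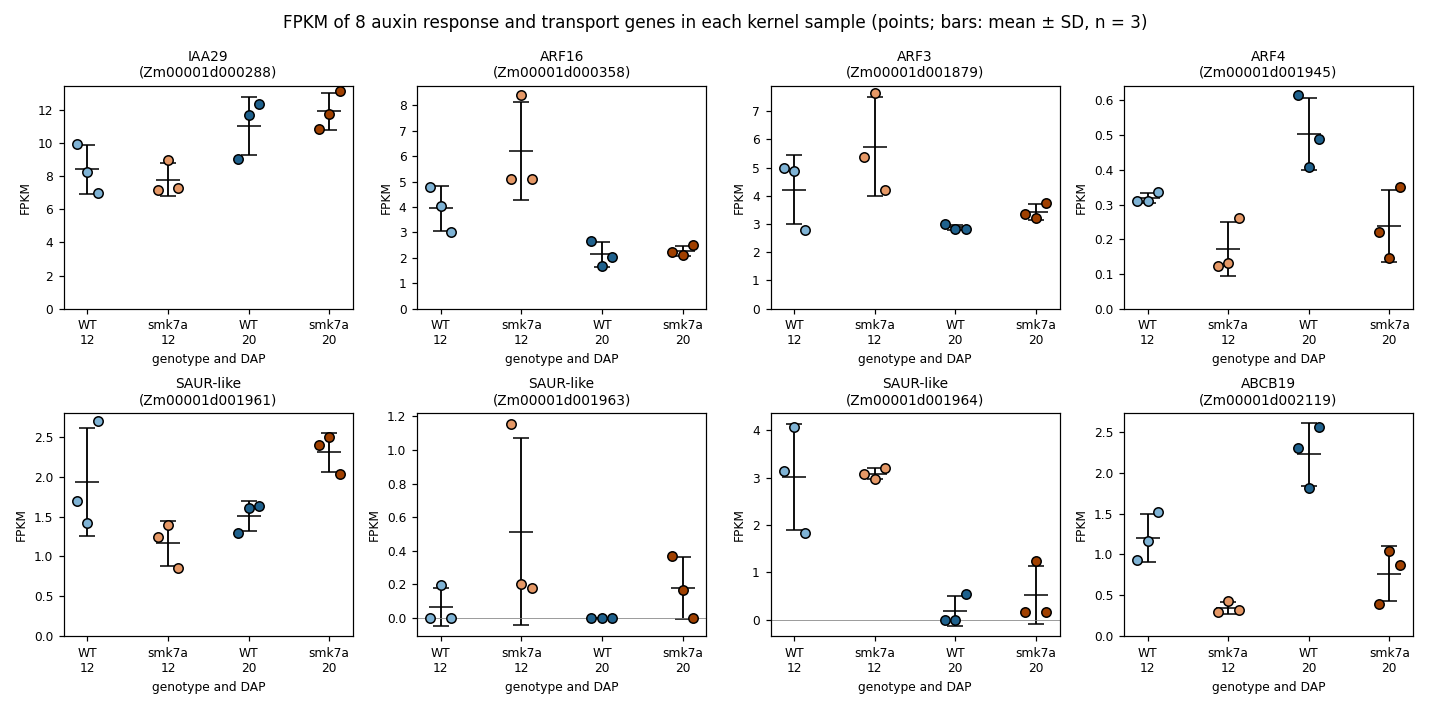
FPKM (y axis, separate scale for each gene) of the 8 genes in the 4 groups of genotype and stage (x axis). Points are the 3 replicates and bars the mean ± SD. *ABCB19* and *ARF4* are lower in every *smk7a* sample than in every WT sample of the same stage, and *Zm00001d001964* is lower in every sample at 20 DAP than in every sample at 12 DAP.

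At 12 DAP none of the 5 tested genes of the 8 was called between *smk7a* and WT, compared with 22.7% of all 365 genes tested, and 1 of the 5 (*ARF16*) had an unadjusted p-value from limma under 0.05. At 20 DAP 1 of 5 was called, *ABCB19*, which was lower. At this stage 15.8% of all 336 genes tested were called in either direction and 1.49% were called lower. From 12 to 20 DAP 1 of 6 tested genes was called in the WT, where 17.7% of all genes were called, and 2 of 5 in *smk7a*, where 19.2% were. The called ones of the 8 were lower at 20 DAP, where 15.7% (WT) and 16.2% (*smk7a*) of all genes were called lower. The difference between the genotypes in this change was called for 1 of 6, compared with 12.0% of all 375 genes tested, and it was higher in *smk7a*, as for 6.67%. Without the fold-change threshold 0 of 5, 2 of 5, 3 of 6, 5 of 5 and 1 of 6 tested genes passed in these 5 comparisons, compared with 51.2%, 69.9%, 61.0%, 52.7% and 21.1% of all genes tested. *Zm00001d001964* was called lower in both genotypes, *ARF16* in *smk7a*, and the change of *Zm00001d001961* was called different between the genotypes. *ARF16* also fell in the WT, short of the fold-change threshold (-0.86, limma adjusted p = 0.00616), and its interaction was not called (adjusted p = 0.312). In the WT *Zm00001d001964* passed the filter only through the 3 samples at 12 DAP, where it is high, so its call there is a description. The 3 *smk7a* values lay above the 3 WT values for 1 of the 8 genes at 12 DAP and 2 at 20 DAP, and below them for 3 at 12 DAP and 2 at 20 DAP. Over all genes tested *smk7a* lay above without overlap for 51.5% and 67.9%, and below for 9.04% and 5.36%. From 12 to 20 DAP 2 of the 8 genes in each genotype were higher without overlap, against 4.65% of all genes tested in the WT and 8.79% in *smk7a*, and 2 in the WT and 3 in *smk7a* were lower, against 63.1% and 54.1%. The counts without overlap are over all 8 genes, whereas the shares cover tested genes only. Among the genes counted, *ARF4* was not tested in any comparison and *ABCB19* was not tested at 12 DAP. These shares are given as background, and nothing about the 8 genes is read from them.

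*IAA29*, the Aux/IAA gene and thus a repressor of the ARFs by its family, was the most highly expressed of the 8 genes in all 4 groups. It was at 9.94, 8.26 and 7.01 FPKM in the WT and at 7.15, 8.96 and 7.28 FPKM in *smk7a* at 12 DAP. It reached 9.04, 11.7 and 12.3 FPKM in the WT and 10.9, 11.8 and 13.1 FPKM in *smk7a* at 20 DAP. The genotypes overlapped at both stages, and in the order of the means (*smk7a* at 20 DAP, WT at 20 DAP, WT at 12 DAP, *smk7a* at 12 DAP) each group overlapped its neighbour. The log2 fold change of *smk7a* over WT was -0.10 ± 0.18 (SE, limma adjusted p = 0.655) at 12 DAP and 0.12 ± 0.14 (SE, adjusted p = 0.451) at 20 DAP. Relative to the median of all genes tested these are -0.58 and -0.41, so that *IAA29* lay below the median gene at both stages. With median of ratios scaling the values were -0.58 (adjusted p = 0.0225) and -0.44 (adjusted p = 0.0685), below a fold change of 2 and with the sign turned at 20 DAP. From 12 to 20 DAP all *smk7a* values were higher at the later stage, with a log2 fold change of 0.61 ± 0.13 (SE, limma adjusted p = 0.00878), which is below the fold-change threshold. In the WT it was 0.39 ± 0.19 (SE, adjusted p = 0.0890), and the stages overlapped. Both values are opposite in sign to the median of all genes. After median of ratios scaling the *smk7a* value was 1.05 (adjusted p = 0.00138) and passed both thresholds. The WT value was then 0.94 (limma adjusted p = 0.00777), just under the fold-change threshold. The changes of the 2 genotypes differed by 0.22 ± 0.23 (SE, adjusted p = 0.542 for the interaction in limma).

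*ARF16* and *ARF3* encode DNA-binding factors of the ARF family and were expressed in all 12 samples. *ARF16* was at 4.80, 4.06 and 3.03 FPKM in the WT and at 5.10, 8.42 and 5.10 FPKM in *smk7a* at 12 DAP. It was at 2.68, 1.69 and 2.04 FPKM in the WT and at 2.22, 2.10 and 2.50 FPKM in *smk7a* at 20 DAP. Every *smk7a* sample was thus above every WT sample at 12 DAP, replicate 2 of *smk7a* by the largest margin, while the genotypes overlapped at 20 DAP. The log2 fold change of *smk7a* over WT was 0.62 ± 0.25 (SE, limma adjusted p = 0.0754) at 12 DAP, close to the median of all genes (0.14 relative to it), and 0.11 ± 0.19 (SE, adjusted p = 0.602) at 20 DAP. Under median of ratios scaling the value at 20 DAP changed sign, to -0.43 (adjusted p = 0.0790). In both genotypes each sample at 20 DAP was below each sample at 12 DAP. In *smk7a* *ARF16* fell from 6.21 ± 1.92 to 2.28 ± 0.206 FPKM (SD, n = 3), which is -1.37 ± 0.22 as a log2 fold change (SE, limma adjusted p = 0.00251), or -0.93 relative to the median. Median of ratios scaling gave -0.94 (adjusted p = 0.0121), just under the fold-change threshold. In the WT the means were 3.96 ± 0.888 and 2.13 ± 0.502 FPKM (SD, n = 3), a log2 fold change of -0.86 ± 0.22 (SE, limma adjusted p = 0.00616) that did not reach a fold change of 2, except without replicate 3 of the WT at 12 DAP (-1.04, adjusted p = 0.00415) or replicate 1 of the WT at 20 DAP (-1.03, adjusted p = 0.00511). Relative to the median the WT value was -0.32. Median of ratios scaling gave -0.33 (limma adjusted p = 0.197) and upper quartile scaling -0.41 (limma adjusted p = 0.113), so neither passed. The changes of the genotypes differed by -0.51 ± 0.33 (SE, adjusted p = 0.312 for the interaction in limma), which did not pass.

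*ARF3* followed a similar order, with a narrower span. It was at 4.98, 4.87 and 2.81 FPKM in the WT and at 5.38, 7.65 and 4.21 FPKM in *smk7a* at 12 DAP, where the genotypes overlapped. At 20 DAP it was at 2.999, 2.83 and 2.84 FPKM in the WT and at 3.35, 3.21 and 3.75 FPKM in *smk7a*, without overlap. The third WT replicate at 12 DAP was as low as the WT at 20 DAP. The log2 fold change of *smk7a* over WT was 0.44 ± 0.29 (SE, limma adjusted p = 0.234) at 12 DAP and 0.24 ± 0.12 (SE, adjusted p = 0.108) at 20 DAP. Both signs turned under median of ratios scaling, with values of -0.034 and -0.31. Upper quartile scaling turned the sign at 20 DAP (-0.26) and gave 0.00041 at 12 DAP. From 12 to 20 DAP the log2 fold change was -0.69 ± 0.22 in *smk7a* (SE, limma adjusted p = 0.0339) and -0.49 ± 0.21 in the WT (SE, adjusted p = 0.0657), below a fold change of 2 in both and near the medians of all genes. Over the 12 samples log2(FPKM + 0.1) of *ARF3* and *ARF16* had a Pearson correlation of 0.91, the highest among the 6 of the 8 genes that exceeded 1 FPKM in 3 or more samples, and the stages and the shift common to most genes are part of it.

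*ARF4* was far weaker than the other ARF genes and did not exceed 0.615 FPKM in any sample. Its synonyms include MP, the name of *Arabidopsis* MONOPTEROS, an ARF that acts in embryo patterning. At 12 DAP it was at 0.310, 0.310 and 0.336 FPKM in the WT and at 0.123, 0.131 and 0.261 FPKM in *smk7a*. The values at 20 DAP were 0.615, 0.409 and 0.488 FPKM in the WT and 0.220, 0.145 and 0.350 FPKM in *smk7a*. All *smk7a* values were thus below all WT values of the same stage, whereas the other 2 ARF genes had higher means in *smk7a* in the FPKM as deposited. The difference of mean log2(FPKM + 0.1) was -0.66 at 12 DAP and -0.87 at 20 DAP, or -1.14 and -1.40 relative to the medians of all genes tested, and the two-sided exact permutation test gave p = 0.1 at each stage, the smallest that 3 samples against 3 allow. With no filter on low FPKM, limma gave adjusted p-values of 0.133 and 0.0570. In the WT the values at 20 DAP were above those at 12 DAP without overlap, by 0.51 on the log2 scale (exact permutation test, p = 0.1), while in *smk7a* the stages overlapped (0.31, exact p = 0.5). The sum of the 3 ARF genes, most of it from *ARF16* and *ARF3*, was 8.50 ± 2.06 FPKM in the WT and 12.1 ± 3.57 FPKM in *smk7a* at 12 DAP, and 5.53 ± 0.698 and 5.95 ± 0.591 FPKM at 20 DAP (SD, n = 3).

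**Figure D2:**
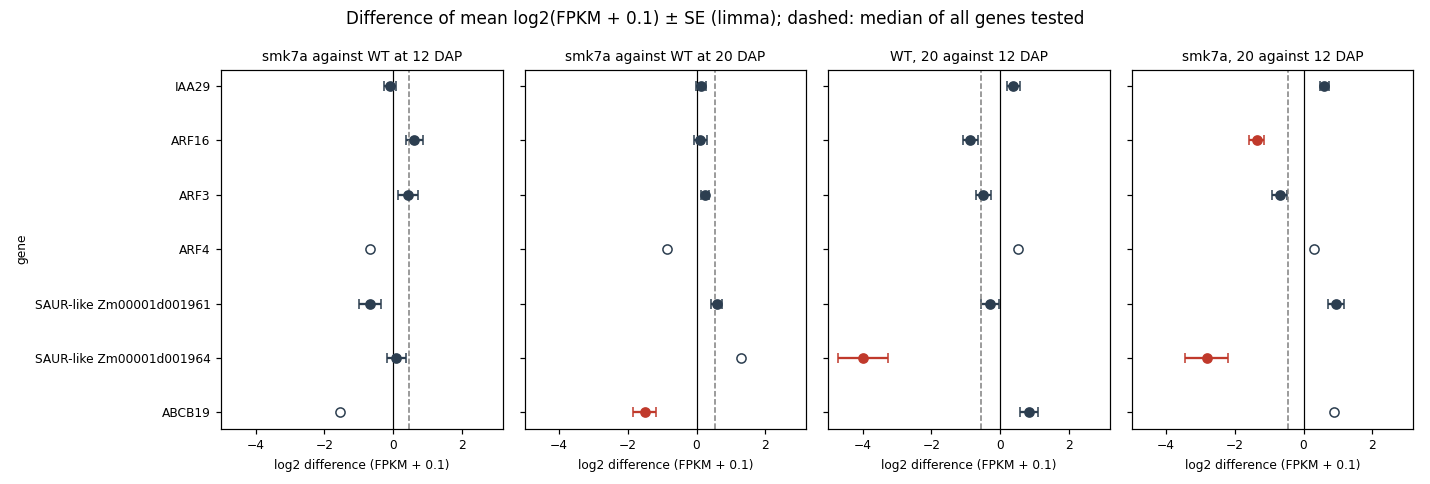
Difference of mean log2(FPKM + 0.1) ± SE (x axis, log2 scale) for 7 of the 8 genes (y axis) in 4 comparisons. Filled points were tested with limma and red ones passed both thresholds, open points were below the filter on low FPKM and have no SE, and the dashed line is the median of all genes tested. *Zm00001d001963*, listed at 0 FPKM in all WT samples at 20 DAP, is left out. *ABCB19* lies at -1.53 and -1.50 in *smk7a* against WT, on the other side of 0 from the medians of 0.48 and 0.53.

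The 3 SAUR-like genes, which by their family are early targets of the ARFs, did not behave alike. SAUR genes form a large family of short and similar copies, and how FPKM were assigned to reads that match several copies is not given in the sources used here. *Zm00001d001961* was at 1.70, 1.41 and 2.70 FPKM in the WT and at 1.24, 1.40 and 0.853 FPKM in *smk7a* at 12 DAP. At 20 DAP it was at 1.29, 1.61 and 1.63 FPKM in the WT and at 2.40, 2.49 and 2.03 FPKM in *smk7a*. All *smk7a* samples were below all WT samples at 12 DAP, by a margin of 1.40 against 1.41 FPKM for the nearest pair, and all were above them at 20 DAP. The log2 fold change of *smk7a* over WT was -0.66 ± 0.32 (SE, limma adjusted p = 0.113) at 12 DAP and 0.58 ± 0.17 (SE, adjusted p = 0.0164) at 20 DAP, where it was below a fold change of 2. Relative to the medians of all genes these are -1.14 and 0.049, so that at 20 DAP the gene lay close to the median. Under median of ratios scaling the gene was called lower at 12 DAP (-1.12, adjusted p = 0.0412) and not at 20 DAP (0.042, adjusted p = 0.887). In *smk7a* the level at 20 DAP was above that at 12 DAP without overlap, by 0.95 ± 0.23 on the log2 scale (SE, limma adjusted p = 0.0125), while most genes were lower at 20 DAP. This value is just under the fold-change threshold. It passed with median of ratios scaling (1.37, adjusted p = 0.00450), and without replicate 1 of *smk7a* at 12 DAP (1.01), replicate 2 of the same group (1.08) or replicate 3 of *smk7a* at 20 DAP (1.04). In the WT the stages overlapped (-0.30 ± 0.27, SE, limma adjusted p = 0.340).

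The 2 changes of *Zm00001d001961* differed by 1.25 ± 0.35 on the log2 scale (SE, adjusted p = 0.0244 for the interaction in limma). It was 1 of 45 genes called in this test. The adjusted p-value rose to 0.0543 without replicate 1 of *smk7a* at 20 DAP, to 0.0588 without replicate 2 of the same group, and to 0.0595 without replicate 1 of the WT at 20 DAP. Without replicate 3 of the WT at 12 DAP, the highest of its group, the difference was 0.99 (adjusted p = 0.0423), just under the fold-change threshold. Median of ratios scaling gave 1.15 (adjusted p = 0.0540), and over all alternatives the adjusted p-value lay between 0.0187 and 0.0643.

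*Zm00001d001964*, whose synonym is ARG7, had the largest log2 fold change between the stages among the genes tested of the 8. At 12 DAP it was at 3.14, 4.07 and 1.84 FPKM in the WT and at 3.08, 2.96 and 3.21 FPKM in *smk7a*. At 20 DAP it was listed at 0 FPKM in 2 WT samples and at 0.543 FPKM in the third, and it was at 0.166, 1.23 and 0.159 FPKM in *smk7a*. The stages did not overlap in either genotype, and only replicate 2 of *smk7a* was still above 1 FPKM at 20 DAP. In the WT the mean fell from 3.02 ± 1.12 to 0.181 ± 0.313 FPKM (SD, n = 3), a log2 fold change of -4.00 ± 0.73 (SE, limma adjusted p = 0.00134). In this comparison the gene passed the filter through the 3 samples at 12 DAP alone, where it is high, so that it had to differ to be tested. In the fit with no filter the adjusted p-value was 0.00470. In *smk7a* it fell from 3.08 ± 0.124 to 0.520 ± 0.618 FPKM (SD, n = 3), a log2 fold change of -2.82 ± 0.62 (SE, limma adjusted p = 0.00895). Because of the samples at or near 0 FPKM the size of the fall depended on the pseudocount, from -1.76 with 1 FPKM to -6.24 with 0.01 FPKM in the WT and from -1.50 to -3.21 in *smk7a*. With median of ratios scaling the values were -3.66 (adjusted p = 0.0144) and -2.44 (adjusted p = 0.0228), and the medians of all genes were close to 0. Without any 1 of the 3 replicates of the WT at 12 DAP, fewer than 3 samples of the WT comparison were above 1 FPKM, and the gene was no longer tested there. The falls of the 2 genotypes differed by 1.18 ± 1.05 (SE, adjusted p = 0.468 for the interaction in limma), within the spread between replicates. At 12 DAP the genotypes overlapped, with a log2 fold change of 0.10 ± 0.28 (SE, limma adjusted p = 0.776) that changed sign to -0.37 under median of ratios scaling, and at 20 DAP they overlapped as well (two-sided exact permutation test, p = 0.3).

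*Zm00001d001963* was close to the lower limit of the data. It was listed at 0 FPKM in 6 of the 12 samples and exceeded 1 FPKM in a single one, replicate 1 of *smk7a* at 12 DAP with 1.16 FPKM. The other *smk7a* samples at 12 DAP were at 0.202 and 0.179 FPKM, and those at 20 DAP were at 0.367, 0.166 and 0 FPKM. In the WT the gene was listed above 0 in 1 sample, at 12 DAP with 0.196 FPKM. It was thus listed above 0 in 5 of 6 *smk7a* samples, but the genotypes overlapped at both stages (two-sided exact permutation test, p = 0.2 at 12 DAP and p = 0.4 at 20 DAP), and no difference was detectable at this level. Together the 3 SAUR-like genes summed to 5.02 ± 0.594 FPKM in the WT and 4.76 ± 0.642 FPKM in *smk7a* at 12 DAP, and to 1.69 ± 0.445 and 3.01 ± 0.854 FPKM at 20 DAP (SD, n = 3). The gene carrying most of this sum was *Zm00001d001964* at 12 DAP and *Zm00001d001961* at 20 DAP in both genotypes.

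*ABCB19*, which shares its name with the *Arabidopsis* auxin exporter, was the 1 gene of the 8 called between the genotypes. It was at 0.935, 1.16 and 1.52 FPKM in the WT and at 0.288, 0.431 and 0.322 FPKM in *smk7a* at 12 DAP. At 20 DAP it was at 2.31, 1.81 and 2.56 FPKM in the WT and at 0.386, 1.05 and 0.866 FPKM in *smk7a*. All *smk7a* samples were below all WT samples at both stages, and the highest *smk7a* level, in replicate 2 at 20 DAP, lay within the range of the WT at 12 DAP. At 20 DAP the mean was 2.23 ± 0.384 FPKM in the WT and 0.766 ± 0.341 FPKM in *smk7a* (SD, n = 3), a ratio of 0.344. The log2 fold change was -1.50 ± 0.33 (SE, limma adjusted p = 0.00493), or -2.04 relative to the median of all genes, and the omission of single replicates gave values from -1.75 up to -1.13. It was -2.02 after median of ratios scaling (adjusted p = 0.00361), and a pseudocount of 1 FPKM, which is above all but 1 of the *smk7a* values, gave -0.88 (adjusted p = 0.00199), under the fold-change threshold. At 12 DAP the gene was below the filter, since 2 samples exceeded 1 FPKM. Its means were 1.21 ± 0.292 FPKM in the WT and 0.347 ± 0.0747 FPKM in *smk7a* (SD, n = 3), a ratio of 0.288 and a difference of -1.53 on the log2 scale (p = 0.1 by the exact permutation test, two-sided, which cannot be lower here). In the fit without the filter it passed both thresholds at 12 DAP (adjusted p = 0.00903 from limma) and at 20 DAP (adjusted p = 0.0117).

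*ABCB19* also had a higher mean at the later stage in both genotypes. From 12 to 20 DAP the log2 fold change in the WT was 0.85 ± 0.25 (SE, limma adjusted p = 0.0135), below a fold change of 2, and 1.39 relative to the median of all genes. With median of ratios scaling it passed both thresholds (1.36, adjusted p = 0.00667), as it did without replicate 3 of the WT at 12 DAP (1.01, adjusted p = 0.00657). A pseudocount of 1 FPKM lowered the value to 0.55. Over the omissions of single replicates it lay between 0.69 and 1.01, with limma adjusted p-values up to 0.0556. In *smk7a*, where the gene was not tested because a single sample exceeded 1 FPKM, the difference was 0.88 and the stages overlapped through replicate 1 at 20 DAP (exact permutation test, p = 0.2). The 2 changes differed by 0.029 ± 0.49 (SE, adjusted p = 0.961 for the interaction in limma), and this value took either sign when each replicate was left out, from -0.22 to 0.40. The order of the means was WT at 20 DAP, WT at 12 DAP, *smk7a* at 20 DAP and *smk7a* at 12 DAP, of which only the WT at 20 DAP did not overlap its neighbour. At 12 DAP all 3 endosperm genes given above were lower in *smk7a* without overlap as well, and their sum was 259 FPKM in the highest *smk7a* sample against 519 FPKM in the lowest WT sample. At 20 DAP dull endosperm1 (*Zm00001d000002*, -0.23, limma adjusted p = 0.0845) and endosperm specific protein1 (*Zm00001d000418*, -0.38, limma adjusted p = 0.0317) were still lower in *smk7a* without overlap, or -0.76 and -0.91 relative to the median of all genes. *BETL4* (*Zm00001d000161*) overlapped at this stage, with 54.7, 151 and 156 FPKM in *smk7a*. Replicate 1 of *smk7a* at 20 DAP, the one low in *BETL4*, was also the lowest in *ABCB19*, and without it the log2 fold change of *ABCB19* was -1.13 (limma adjusted p = 0.00411). The part of the endosperm genes in the differences of *ABCB19* and *ARF4* was not tested at either stage.

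**Figure D3:**
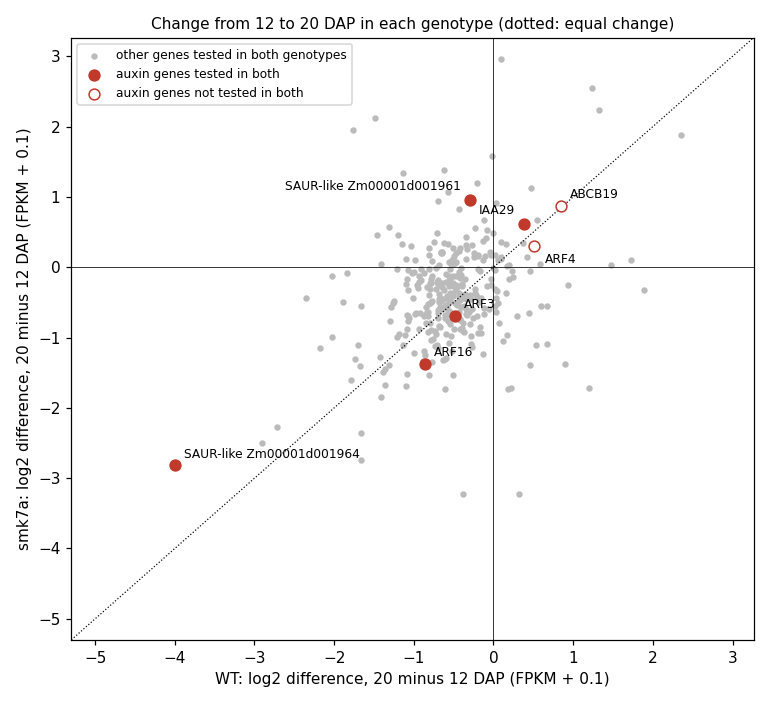
Log2 difference from 12 to 20 DAP on log2(FPKM + 0.1) in the WT (x axis) and in *smk7a* (y axis). Grey points are the other genes among the 338 tested in both genotypes, red points the auxin genes tested in both, open points those not tested in both, and the dotted line marks equal change. Most genes are below 0 in both genotypes (227 of 338), *IAA29*, *ARF4* and *ABCB19* are above 0 in both, and *Zm00001d001961* is above 0 in *smk7a* only (0.95 against -0.30), its sign in the WT turning under median of ratios scaling.

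Set side by side, the changes from 12 to 20 DAP went in both directions within the pathway. Of the 338 genes tested in both genotypes 227 had a lower mean at 20 DAP in both, 21 had a higher mean in both, and *IAA29* was 1 of these 21. *ARF16*, *ARF3* and *Zm00001d001964* were among the 227. All genes called higher from 12 to 20 DAP made up 2.03% of the genes tested in the WT and 3.02% in *smk7a*, and none of the 8 genes was among them with the FPKM as deposited. With median of ratios scaling *ABCB19* was called higher in the WT, and *IAA29* and *Zm00001d001961* were called higher in *smk7a*.

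Of the other genes among the 720, 9 are annotated to auxin or indole by a GO term or description. They include no gene described as a GH3 enzyme or a TIR1/AFB receptor. The single biosynthesis gene, *Zm00001d000445*, described as a YUCCA-type indole-3-pyruvate monooxygenase, did not exceed 0.0552 FPKM in any sample. Over all genes tested, 68 of 365 were called higher in *smk7a* at 12 DAP and 48 of 336 at 20 DAP. At 12 DAP 5 of the 9 were tested and 1 rose in *smk7a* against WT. At 20 DAP 6 were tested and 1 rose, and it was the same gene, *Zm00001d000175*. This gene has no description, and its synonyms (VAB, FKD1) are names of an *Arabidopsis* gene of leaf vein patterning. At 12 DAP it was at 0.596, 1.04 and 0.913 FPKM in the WT and at 1.85, 3.33 and 1.80 FPKM in *smk7a*, 1.33 ± 0.33 higher on the log2 scale (SE, limma adjusted p = 0.0128). At 20 DAP it was at 0.805, 0.309 and 0.246 FPKM in the WT and at 1.02, 1.21 and 1.02 FPKM in *smk7a*, 1.22 ± 0.41 higher on the log2 scale (SE, adjusted p = 0.0270). The 3 *smk7a* values were above the WT values at both stages, and neither difference passed under median of ratios scaling (adjusted p = 0.0821 and 0.221). For the change between the stages 5 of the 9 were tested in each genotype. Over all genes tested 2.03% were called higher at 20 DAP in the WT and 3.02% in *smk7a*. In the WT 1 rose, *Zm00001d002025* (an AP2-like transcription factor described as AIL5), with a log2 fold change of 1.28 ± 0.29 (SE, limma adjusted p = 0.00406). In *smk7a* 1 rose, *Zm00001d001970* (molybdopterin biosynthesis protein CNX1), with 1.12 ± 0.35 (SE, adjusted p = 0.0331), and this call was lost with no filter (adjusted p = 0.0521). The WT value of this gene was 0.48 ± 0.35 (SE, limma adjusted p = 0.259), and the interaction was not called (adjusted p = 0.458). *Zm00001d000175* at 20 DAP and *Zm00001d002025* in the WT passed the filter only through the 3 samples of the group where they are high. With no filter their adjusted p-values were 0.0373 and 0.00809. With the FPKM as deposited none of the 9 was called lower in any of these comparisons, and none of 6 tested was called for the difference between the genotypes. Over all genes tested, 15 of 365 were called lower in *smk7a* at 12 DAP and 5 of 336 at 20 DAP. Between the stages 15.7% (WT) and 16.2% (*smk7a*) were called lower, and 12.0% were called in the interaction. Under median of ratios scaling *Zm00001d000224* (F-box protein SKP2A) was called lower in *smk7a* at 12 DAP (-1.37, limma adjusted p = 0.00114), as were 30 of 365 genes. It was then called higher from 12 to 20 DAP in *smk7a* (1.35, adjusted p = 0.00133), as were 18 of 364. *Zm00001d002025* was called lower in *smk7a* at 20 DAP under this scaling (-1.19, adjusted p = 0.0154), as were 15 of 336.

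A further 3 genes are annotated to plant hormone signal transduction without an auxin term. Among them *Zm00001d001865* (cytokinin response regulator1) fell from 12 to 20 DAP in the WT, with a log2 fold change of -2.91 ± 0.28 (SE, limma adjusted p = 7.03e-05), and in *smk7a*, with -2.49 ± 0.26 (SE, adjusted p = 0.000586). At 12 DAP 2 of the 3, *Zm00001d002029* (protein TIFY 3B) and *Zm00001d002143* (transcription factor TGA4), were called higher in *smk7a*, with 1.07 ± 0.17 (SE, adjusted p = 0.00219) and 1.51 ± 0.48 (SE, adjusted p = 0.0296). Under median of ratios scaling TIFY 3B was under the fold-change threshold (0.59, adjusted p = 0.0443) and TGA4 was above the p threshold (1.08, adjusted p = 0.137). TGA4 (*Zm00001d002143*) exceeded 1 FPKM at 12 DAP only in the 3 *smk7a* samples and thus passed the filter through its high group, and its adjusted p-value with no filter was 0.0344. *Zm00001d001865* exceeded 1 FPKM in the WT only in the 3 samples at 12 DAP, and its adjusted p-value for the WT change with no filter was 0.00112. Over all genes tested, 68 of 365 were called higher in *smk7a* at 12 DAP. From 12 to 20 DAP 15.7% were called lower in the WT and 16.2% in *smk7a*.

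For each of the 6 genes that exceeded 1 FPKM in 3 or more samples, the gene with the most similar course over the 12 samples was taken by the Pearson correlation of log2(FPKM + 0.1) among 375 genes. The stages, the genotypes and the shift common to most genes enter these values, which are descriptions. For *ABCB19* it was *Zm00001d000038* (described as the serine/threonine-protein kinase D6PKL1) with 0.85. For *ARF16* it was *Zm00001d000199* (a nicotinamide adenine dinucleotide transporter gene) with 0.95, for *ARF3* *Zm00001d000117* (a glucan endo-beta-glucosidase gene) with 0.95, and for *Zm00001d001964* *Zm00001d000112* (a NAC domain gene) with 0.92. The means of *Zm00001d000117* were 0.563 (WT) and 4.23 FPKM (*smk7a*) at 12 DAP. At 20 DAP they were 0.0532 and 0.0974 FPKM, below the pseudocount of 0.1 FPKM, so its span was far wider than that of *ARF3*. *Zm00001d001961* was closest to *Zm00001d000294* (O-succinylhomoserine sulfhydrylase) with 0.85. *IAA29* had no close match, the highest value being 0.69 with *Zm00001d001996*, which has no description.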

How the data were processed

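RNA-seq libraries of 12 kernel samples, 3 for each of 4 groups, were analysed, with groups and replicate numbers taken from the sample labels. The authors trimmed the reads, aligned them to B73 RefGen_V4 using HISAT2, retained perfect matches and deposited FPKM per gene and sample. The program that made the FPKM is not given in the sources used here. The table holds no read totals. The paper gives the clean reads per sample as an average, and read totals were not used here. The counting error of single values is thus not given, and errors are the SD over replicates or the standard error from limma. The copy used here holds 720 genes and not the full table, and 0 further sample columns were left unused. P-values measure the spread between these biological replicates, whose number of ears is not given.

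FPKM as deposited were analysed on the scale log2(FPKM + 0.1). The fit (limma 3.58.1, R 4.3.3, with a variance trend) took in genes that exceeded 1 FPKM in 3 or more of the samples compared, and p-values were adjusted by Benjamini-Hochberg over all of them. The code was tested on simulated data. Genes below the filter were compared by the two-sided exact permutation test. Python 3.11.15 with pandas 2.3.3, numpy 2.4.6 and matplotlib 3.10.9 served for tables and figures. The alternatives were pseudocounts of 1 and 0.01 FPKM, a filter at 0.5 FPKM or none, median of ratios and upper quartile scaling, no variance trend, 1 fit over all samples, the replicate number as a block, no fold-change threshold, and the omission of single replicates.

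The 8 genes and all lists were chosen with earlier results of these data known. Named are the 8 genes, the other genes annotated to auxin or plant hormone signal transduction that were called, and the most similar gene of each tested member. Lists of endosperm, embryo and maternal tissue genes were taken from the descriptions. No gene identifier matched the gene name table of the newer assembly, so no coordinates or sequences are given.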

Additional observations from a re-analysis of the deposited data

Results flagged for a closer look

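The effect of the genotype on *Zm00001d001961*, a SAUR-like gene, differed between the stages by 1.25 ± 0.35 on the log2 scale (SE, adjusted p = 0.0244 for the interaction in limma over 375 genes). All 3 *smk7a* samples were below the WT at 12 DAP and all 3 were above it at 20 DAP. The call was lost under median of ratios and upper quartile scaling, with a pseudocount of 1 FPKM, and without any of 4 single samples, as given above. Groups of 3 are too small for a check of single outlying samples.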

How the results depend on the processing

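With median of ratios scaling the number of genes called was 28 at 20 DAP, 32 from 12 to 20 DAP in the WT and 43 in *smk7a*, and with upper quartile scaling it was 28 at 20 DAP and 31 in the WT. The number of the 8 genes called became 1 at 12 DAP, 2 for the WT change and 0 for the interaction under both scalings. Under median of ratios scaling the sign turned for *Zm00001d001879* (-0.034) and *Zm00001d001964* (-0.37) at 12 DAP, for *Zm00001d000288* (-0.44), *Zm00001d000358* (-0.43) and *Zm00001d001879* (-0.31) at 20 DAP, for *Zm00001d001879* (0.051) and *Zm00001d001961* (0.22) in the WT change, and for *Zm00001d002119* (-0.15) in the interaction. Under upper quartile scaling it turned for *Zm00001d001964* (-0.33) at 12 DAP, for *Zm00001d000288* (-0.39), *Zm00001d000358* (-0.38) and *Zm00001d001879* (-0.26) at 20 DAP, for *Zm00001d001961* (0.14) in the WT change and for *Zm00001d002119* (-0.20) in the interaction. None of these values was called before or after scaling. With a pseudocount of 1 FPKM 33 genes were called at 20 DAP and 33 in the WT change, 0 of the 8 genes were called at 20 DAP and in the interaction, and the interaction of *Zm00001d002119* was -0.18. A filter at 0.5 FPKM or none brought in *ABCB19* at 12 DAP, so that 1 of the 8 genes was called. Without the fold-change threshold 187 genes passed at 12 DAP, 235 at 20 DAP, 210 in the WT change, 192 in the *smk7a* change and 79 in the interaction, among them 0, 2, 3, 5 and 1 of the 8 genes.

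Over the omissions of single replicates, calls ranged from 74 to 86 at 12 DAP, 45 to 64 at 20 DAP, 47 to 66 in the WT change, 54 to 68 in the *smk7a* change and 36 to 49 in the interaction. The number of the 8 genes called ranged from 0 to 0, 1 to 1, 0 to 2, 2 to 3 and 0 to 1, respectively. In the WT change it was 0 without replicate 1 or 2 of the WT at 12 DAP and 2 without replicate 3 of the WT at 12 DAP or replicate 1 of the WT at 20 DAP. The log2 fold changes that took either sign were those of *Zm00001d000288* (-0.22 to 0.026) and *Zm00001d001964* (-0.21 to 0.34) at 12 DAP, of *Zm00001d000288* (-0.015 to 0.21) and *Zm00001d000358* (-0.039 to 0.28) at 20 DAP, and of *Zm00001d001879* (-0.40 to 0.063) and *Zm00001d002119* (-0.22 to 0.40) in the interaction. With the replicate block 83, 53, 61, 70 and 45 genes were called in the 5 comparisons, and no call of the 8 genes changed. Same-numbered samples had correlations of deviations between -0.28 and 0.18, over 0.1 for 3 of 12 pairs, and 9 of 24 checks found a sample closest to its own number, so the numbers were not taken to pair the samples. The causes of these changes were not tested.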
